A study of Mus musculus with 9 samples.

Results

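The potassium channel genes of the mouse, taken as the genes whose symbol starts with Kcn, were examined in cultured neural stem cells and in glioma stem cells from a mouse model of Nf1 loss. A gene entered where at least 1 probe set of the array carried its symbol and no other. This gave 84 of 18193 measured genes, 46 of which had several probe sets and were represented by the brightest over all arrays. Among the 84 are 3 non-coding RNA genes (Kcnq1ot1, Kcnmb4os1 and Kcnmb4os2). Other genes of the family were not analysed here.

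Cultured cells of C57BL/6 mice were measured on 9 microarrays, 3 for each of 3 groups, and a signal is the linear brightness of a probe set. Log2 differences are of log2(value + 1). The wild-type neural stem cells (NSC) were taken at postnatal day 1 from the third ventricular zone of Nf1flox/flox pups and had been given a LacZ virus as control. Nf1-null NSC were the same kind of Nf1flox/flox cells exposed to a Cre virus to delete Nf1, a gene whose product restrains Ras. Glioma stem cells (GSC) were grown from optic nerve tumours of 3-month-old Nf1+/-GFAP CKO mice. All groups were kept in low-attachment dishes in medium with FGF and EGF (20 ng/ml each). Any NSC difference holds Cre virus and Nf1 loss together, and GSC differ from both NSC groups in age, tissue, virus and genotype at once. Independent cultures are named as the aim for the NSC only, so p-values measure the spread between these samples, which may be technical in part.

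Potassium channels let potassium ions cross the membrane and set the resting potential and the shape and rate of electrical signals. Voltage-gated Kv pore subunits open on depolarization and work with accessory subunits, calcium-activated channels follow intracellular calcium, inward rectifiers pass current near rest, and two-pore domain (K2P) channels carry leak current. In glial cells the inward rectifier gene Kcnj10 is known for the uptake of extracellular potassium, and neural progenitors and glioma cells are known to carry several Kv, calcium-activated and leak channels.

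The stretches of 250 bases just upstream of the start site are shown for 4 of the voltage-gated pore subunits that the results turn on, chosen with their values known, from RefSeq on GRCm38.p6. Kcnd2 (chr6:21215096-21215345, plus strand) and Kcnd3 (chr3:105451640-105451889, plus strand) encode A-type pore subunits. Kcna2 (chr3:107101317-107101566, plus strand) encodes a delayed rectifier subunit, and Kcnc1 (chr7:46396218-46396467, plus strand) a fast-gating one. Capitals mark matches on either strand to the GC box GGGCGG, the AP-1 site TGANTCA or the CRE TGACGTCA.
Kcnd2: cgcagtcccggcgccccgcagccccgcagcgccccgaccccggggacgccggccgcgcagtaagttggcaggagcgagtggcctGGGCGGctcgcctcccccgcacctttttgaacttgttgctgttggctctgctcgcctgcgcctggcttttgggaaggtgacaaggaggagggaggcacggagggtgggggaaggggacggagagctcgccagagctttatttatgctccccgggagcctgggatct
Kcnd3: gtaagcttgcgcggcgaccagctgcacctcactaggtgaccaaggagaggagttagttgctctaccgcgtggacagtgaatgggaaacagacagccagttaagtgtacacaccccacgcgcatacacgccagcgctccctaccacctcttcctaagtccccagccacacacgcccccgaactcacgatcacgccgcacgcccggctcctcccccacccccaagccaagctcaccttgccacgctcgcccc
Kcna2: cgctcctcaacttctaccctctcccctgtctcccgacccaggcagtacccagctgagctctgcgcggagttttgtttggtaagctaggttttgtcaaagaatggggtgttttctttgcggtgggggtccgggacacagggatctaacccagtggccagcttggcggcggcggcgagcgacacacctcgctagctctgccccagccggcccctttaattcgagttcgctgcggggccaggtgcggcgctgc
Kcnc1: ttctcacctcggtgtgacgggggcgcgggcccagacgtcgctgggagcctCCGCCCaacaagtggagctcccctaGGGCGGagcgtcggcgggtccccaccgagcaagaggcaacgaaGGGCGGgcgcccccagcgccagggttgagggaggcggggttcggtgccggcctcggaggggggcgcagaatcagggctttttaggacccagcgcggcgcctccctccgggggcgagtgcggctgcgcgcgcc
The Kcnd2 window held 1 GC box and 22 CpG dinucleotides, and the Kcnc1 window 3 GC boxes and 30 CpG dinucleotides. The Kcnd3 and Kcna2 windows each held 18 CpG dinucleotides and no match to these 3 motifs. Of the 84 genes 64 had such an entry, and 50% of these held a GC box, against 32.9% of 27025 genes with a window of the same length. A CANNTG E-box was in 68.8% against 66.0%, an AP-1 site in 4.69% against 6.87%, and TATAAA in 3.12% against 13.0%. The CRE was in 0 of the 64 windows and in 1.62% of all. Median GC content was 58.8% against 52%. E-box matches can overlap the other motifs, and all these are counts of letters, not of bound sites.

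As a group the potassium channel genes were dim. Their median mean signal was 7.14 on the log2(value + 1) scale, against 9.27 for all genes. Genes with a mean under 6.41, the 25th percentile of all genes, are called dim here, and this held for 31 of the 84 (36.9%). Only 16 (19.0%) were in the brighter 50% of genes. Just under the limit lay Kcna4 (6.31), Kcna5 (6.33) and Kcnt2 (6.39), and just above it Kcnh7 (6.53), Kcnk7 (6.54) and Kcna3 (6.63). Each probe set has its own binding strength, so these levels do not rank transcripts against each other.

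Dim members were found in most classes. Of 15 inward rectifiers 9 were dim, of 12 K2P channels 5, and of 12 accessory subunits, 11 calcium- or sodium-activated channel genes and 9 silent Kv modifiers 4 each. Of 7 Kv1 subunits 2 were dim, and 1 each of 6 EAG, ERG and ELK genes, of 3 Kv7 genes and of 3 non-coding RNAs, while none of 3 Kv3 and 3 Kv4 subunits was. The brightest members were Kcnd3 (13.52), Kcnj10 (12.85), Kcnmb4 (11.95), Kcnk2 (11.82), Kcnd2 (11.71) and Kcna2 (11.22). Replicates of one group differed by a median SD of 0.58 (log2) for the 53 members that were not dim and 1.08 for the dim ones, against 0.29 and 1.12 for all genes of those kinds.

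**Figure D1:**
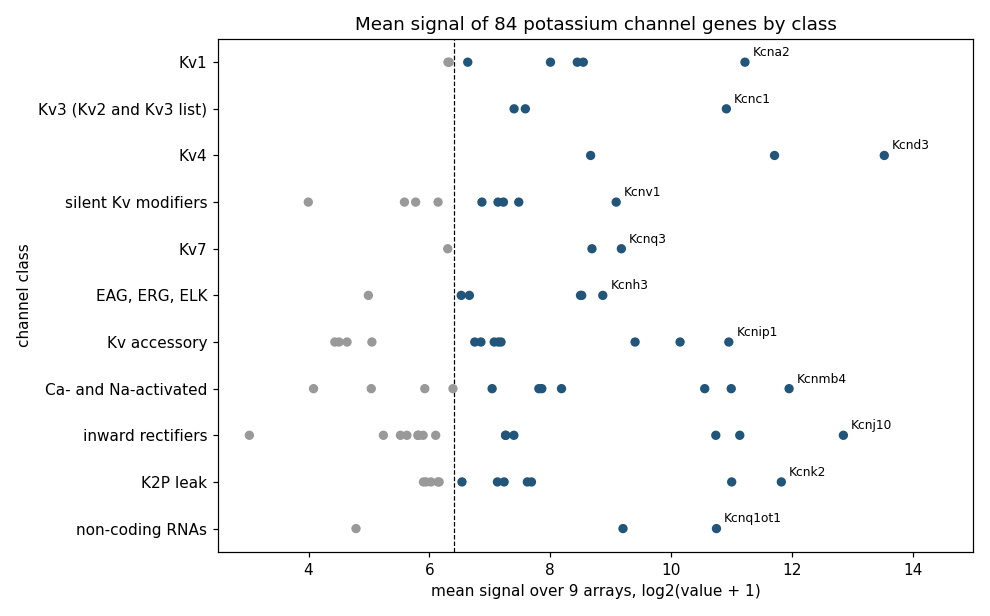
Mean signal of the 84 potassium channel genes over the 9 arrays, as log2(value + 1) on the x axis, by channel class on the y axis. Each point is a gene, grey points left of the dashed line at 6.41 are dim, and the brightest gene of each class is named, from Kcnh3 at 8.87 to Kcnd3 at 13.52.

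Marker genes set the frame for these cultures. Summed signals of 8 stem cell markers overlapped between the groups (213495.5 to 287232.1 over all arrays), but single markers moved both ways. In GSC, Nes and Vim were higher and Sox2, Msi1 and Sox9 lower than in wild-type NSC without overlap, and 3 overlapped. Between the NSC groups, Sox2 was lower in Nf1-null NSC without overlap and 7 overlapped. Those of 8 astrocyte markers ranged from 223370.4 to 276835.8 on the wild-type arrays, from 108343.3 to 188704.5 on the Nf1-null arrays and from 98572.8 to 128999.7 on the GSC arrays, where Gfap was dim and no marker was listed at 0. The 8 oligodendrocyte precursor markers summed to 133654.2 to 150420.9, 87094.4 to 111109.3 and 140027.6 to 151627.3, and 7 oligodendrocyte markers to 41991.7 to 62994.2, 20368.9 to 44951.5 and 27044.6 to 92737.8. The sums of 8 neuronal markers were 51857.7 to 60090.4, 46125.1 to 47241.1 and 37269.5 to 45525.7, and Map2 alone was 31879.2 to 55847.9 over all arrays. Of these 8, Tubb3 was higher in GSC than in wild-type NSC without overlap. Rbfox3, Snap25, Map2 and Nefm were lower, and 3 overlapped. Microglial, endothelial and pericyte markers summed to at most 1809.5 on any array. The 3' to 5' ratio of Actb, a sign of RNA quality, was 1.87 to 1.88, 1.49 to 1.67 and 1.73 to 1.85. The part that these shifts have in the channel results was not tested, and in bulk RNA fewer cells of a type and less RNA per cell cannot be told apart. Nf1 itself was 1139.5, 919.5 and 999.9 on the wild-type arrays, 430.3, 645.8 and 577 on the Nf1-null arrays and 622.6, 600.1 and 548.9 on the GSC arrays.

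Between GSC and wild-type NSC, the members changed in both directions. The silent Kv modifier gene Kcnf1, the accessory subunit gene Kcne1l, the calcium-activated channel gene Kcnn2, and Kcna2, Kcns2 and Kcnk16 fell. The falls were 2.70-fold for Kcns2, 3.86-fold for Kcna2 and 7.98-fold for Kcnn2. Kcnf1, Kcne1l and Kcnk16 were near the floor in GSC, so their sizes depend on the pseudocount, with log2 differences of -3.13, -6.03 and -1.53 at 1 and of -2.30, -4.81 and -1.19 at 16. The leak channel gene Kcnk13, the modifier gene Kcnv1, and Kcnj4, Kcnq5 and Kcnd3 rose, by 1.82-fold to 8.05-fold. These 11 of 84 genes (13.1%) passed an adjusted p of 0.05 in limma over all genes, where 9.06% of all genes did. By direction, 5 rose against 3.46% of all genes and 6 fell against 5.6%. The share is near the background. Among the brighter 50% of genes 7 of 16 members passed, where 27.2% of such genes did. With quantile normalization the split was 7 up and 4 down, and with arrays shifted to the same median 8 up and 5 down. That shift raises every difference between these groups by 0.14.

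Differences in that comparison were positive for 36 genes and negative for 48, with a median of -0.16 on the log2 scale (-0.27 for the 53 genes not dim) against -0.09 for all genes. Of the 53, 8 were higher and 13 lower with no overlap of the groups, where 16.7% and 25.3% of all genes that are not dim were. Calls depended on single arrays. Their number was 1 without wild-type NSC array 2, 3 without GSC array 2 or array 3, 4 without wild-type NSC array 3 and 6 without wild-type NSC array 1, and 6 with the mean of all probe sets of a gene.

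GSC differed from Nf1-null NSC in 3 members. Kcna2 fell 2.93-fold, Kcnf1 fell by 3.17 on the log2 scale (-2.34 with a pseudocount of 16), and Kcnip3, which encodes a calcium-binding subunit of A-type channels, rose 2.84-fold. The 3 of 84 genes compare with 1.75% of all genes called, 0.671% up and 1.08% down. Positive differences numbered 38 and negative ones 46, with a median of -0.10 (0.04 for the genes not dim) against -0.04 for all genes. Of the 53 not dim, 9 were higher and 6 lower without overlap, where 10.6% and 14.9% of such genes were. Among the brighter 50% of genes 4 of 16 members passed, where 6.67% of such genes did. With replicate numbers as a block, 1 member fell (Kcne1l) and the other 3 calls did not hold. No member was called in the 6 arrays of the 2 groups alone, with the mean of all probe sets, or without Nf1-null NSC array 1 or 3 or GSC array 2 or 3. There was 1 call without wild-type NSC array 1 or 2, and there were 2 without wild-type NSC array 3, 3 without Nf1-null NSC array 2 and 6 without GSC array 1.

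Between Nf1-null and wild-type NSC no member passed over all genes (0 of 84), and the share of all genes called was 0% as well. At an unadjusted p under 0.05 there were 16 (19.0%), where 16.8% of all genes were. Within the planned test of the brighter 50% of genes, 2 of 16 members passed, Kcnd2, which fell 8.73-fold, and Kcnc1, which rose 2.29-fold. Kcnd2 had already been named in earlier results of these data when this test was planned. That test called 4.38% of genes, 2.29% up and 2.09% down. A mean-variance trend in limma called the same 2 members, and 1.81% of all genes. In the whole family 36 differences were positive and 48 negative, with a median of -0.17 (-0.29 for the genes not dim) against -0.06 for all genes. Of the 53 genes not dim, 2 were higher and 12 lower without overlap, where 11.5% and 16.7% of such genes were.

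**Figure D2:**
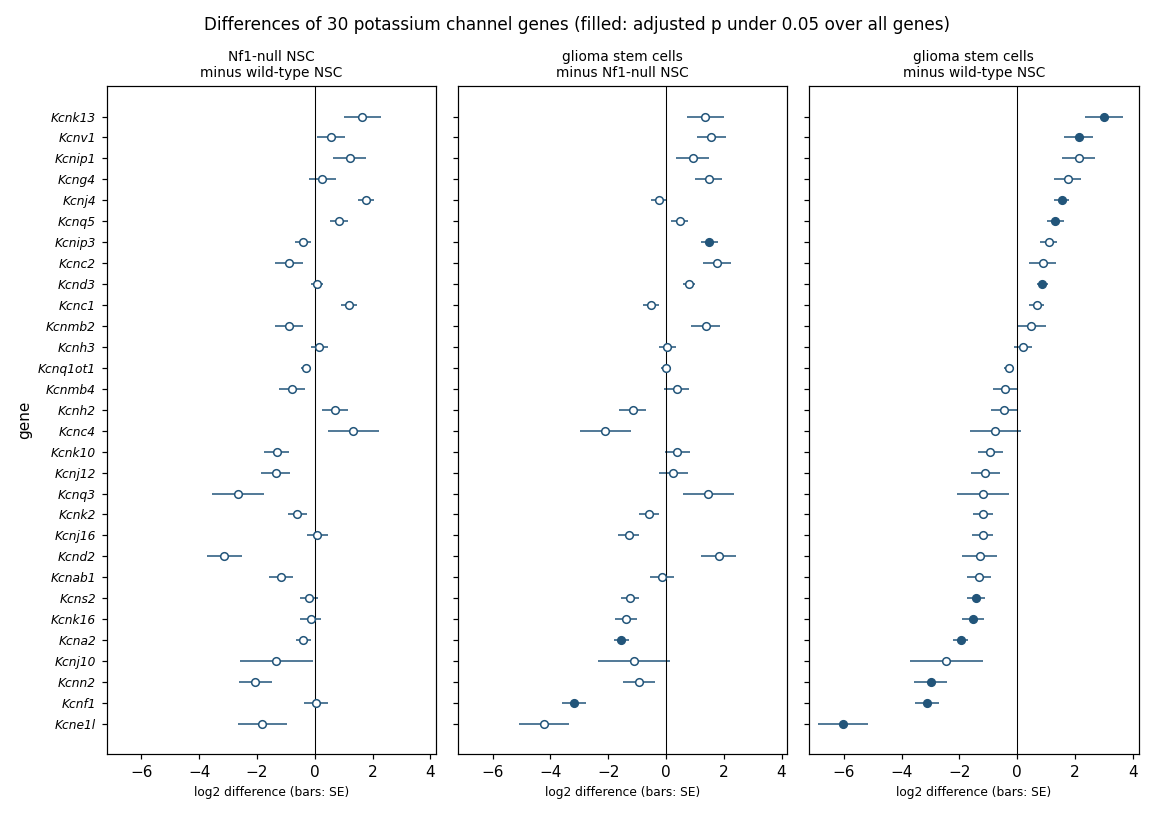
Log2 differences of 30 named potassium channel genes (y axis) in the 3 comparisons, with moderated standard errors as bars. Filled points passed an adjusted p of 0.05 over all genes, and open points did not. In GSC minus wild-type NSC, 11 points are filled and Kcne1l lies farthest from 0, at -6.03; in the comparison of the NSC groups none is filled.

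Among the Kv1 genes, which encode voltage-gated pore subunits, Kcna2 was the one that passed over all genes. Its signal was 4276.9, 3715.3 and 4343.3 on the wild-type arrays, 3829.3, 2023.5 and 3883.6 on the Nf1-null arrays and 1023.9, 1111.9 and 1051.1 on the GSC arrays. The GSC arrays lay within a narrow band, below every NSC array, and Nf1-null NSC array 2 was the lowest of the NSC. The difference was -1.95 (SE 0.26, adjusted p = 0.0112 in limma with Benjamini-Hochberg adjustment) against wild-type NSC and -1.55 (SE 0.26, adjusted p = 0.0375) against Nf1-null NSC, and -0.40 (adjusted p = 0.481) between the NSC groups. Leaving out any 1 array kept the call against wild-type NSC, at -1.91 to -2.02. Against Nf1-null NSC it held only without Nf1-null NSC array 2 (-1.86), and was lost without any of the other arrays (-1.39 to -1.58) and with the block (-1.55, adjusted p = 0.0610). A second bright probe set of Kcna2 gave -1.63 and -1.33, while a pair of dim ones gave 0.50 and 1.26 against wild-type NSC, and the mean of all 4 was -0.46 with no call. Of 7 Kv1 genes, 1 fell and 6 did not pass in either GSC comparison. Kcna6, which was singled out after its values were seen, was 332.1, 429.7 and 494.5 on the wild-type arrays, 237.1, 210.3 and 250.6 on the Nf1-null arrays and 397.5, 535.2 and 396.1 on the GSC arrays. Its Nf1-null NSC arrays were all below those of the other groups (log2 difference 0.92 in GSC over Nf1-null NSC, adjusted p = 0.0850, not past the threshold).

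The Kv3 genes, which encode pore subunits for fast firing, showed a further pattern. Kcnc1 was 1170, 1017.3 and 1646.5 on the wild-type arrays, 2681.1, 2916.1 and 3012.6 on the Nf1-null arrays and 2793.9, 1892.9 and 1492.7 on the GSC arrays. All 3 Nf1-null NSC arrays exceeded all wild-type NSC arrays, and GSC spanned the gap. The difference between the NSC groups was 1.20 (SE 0.27, adjusted p = 0.139 over all genes, 0.0366 in limma among the brighter 50%, 0.0438 with the trend). Other probe sets gave 1.10 and 0.93, and the remaining, weaker one -0.24. Kcnc2 was 131.8, 233.4 and 229.1 on the wild-type arrays, 89.8, 125.5 and 96.8 on the Nf1-null arrays and 167.1, 445.5 and 592.6 on the GSC arrays, lowest in Nf1-null NSC without overlap with either other group, but no comparison passed (1.77 over Nf1-null NSC, adjusted p = 0.125). Kcnc4 was 171.9, 46.9 and 388.8 on the wild-type arrays, 274.2, 344.2 and 550.9 on the Nf1-null arrays and 32.1, 203.9 and 96.7 on the GSC arrays, with GSC below Nf1-null NSC (-2.10, adjusted p = 0.291) and wild-type NSC spread over both. For this class 0 of 3 genes passed over all genes in any comparison.

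The Kv4 pore subunits carry the transient A-type current together with KChIP subunits (Kcnip1 to Kcnip4) and the transmembrane partners Dpp6 and Dpp10. Kcnd2 was 9523.3, 10442.7 and 8100.2 on the wild-type arrays, 2204.6, 350.9 and 1557.6 on the Nf1-null arrays and 3525.2, 4435.8 and 3459.9 on the GSC arrays. No groups overlapped: wild-type NSC were highest, GSC intermediate and Nf1-null NSC lowest, with Nf1-null NSC array 2 far below the other arrays. The difference between the NSC groups was -3.13 (SE 0.61, adjusted p = 0.109 over all genes, 0.0252 in limma among the brighter 50%, 0.0263 with the trend) and without Nf1-null NSC array 2 it was -2.33 over all genes, where no omission of an array gave a call. GSC differed by 1.83 from Nf1-null NSC (adjusted p = 0.197) and by -1.30 from wild-type NSC (adjusted p = 0.225). Other bright probe sets gave -3.03 and -3.13 between the NSC groups.

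Kcnd3 took another course. Its signal was 10926.1, 9161.6 and 8494.5 on the wild-type arrays, 8780.5, 11288.3 and 10032.4 on the Nf1-null arrays and 13976.7, 18428.7 and 20065.6 on the GSC arrays. The NSC groups overlapped, and every GSC array was above every NSC array. It rose by 0.87 (SE 0.20, adjusted p = 0.0373) over wild-type NSC, was 0.79 higher than in Nf1-null NSC (adjusted p = 0.107) and differed by 0.08 between the NSC groups (adjusted p = 0.883). That rise lost its call without wild-type NSC array 1, 2 or 3 (0.97, 0.84 and 0.79), Nf1-null NSC array 1 or 3 (0.87 both) or GSC array 2 or 3 (0.82 and 0.76), in the 6 arrays compared (0.87), and with the mean of all probe sets (1.11). The next brightest Kcnd3 probe set gave 1.17. Kcnd1, the other gene of this class, did not pass in any comparison.

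**Figure D3:**
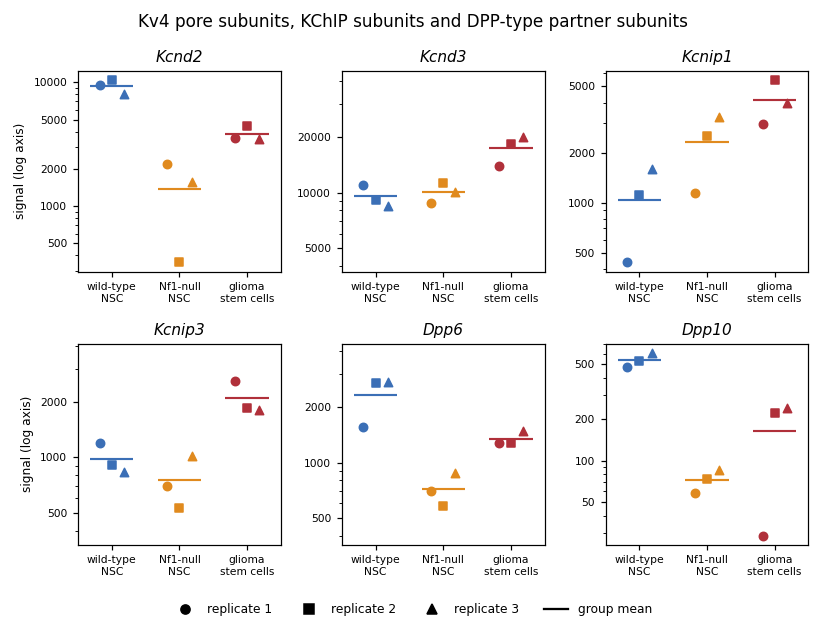
Signals (log axis) of the Kv4 pore subunit genes Kcnd2 and Kcnd3, the KChIP genes Kcnip1 and Kcnip3 and the partner genes Dpp6 and Dpp10 on each array, by group, with lines at group means (n = 3). Symbols mark replicate numbers. Kcnd2, Dpp6 and Dpp10 are lowest or near lowest in Nf1-null NSC, while Kcnd3 and Kcnip3 are highest in GSC.

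Of the 4 KChIP genes, Kcnip3 passed over all genes, in 1 comparison, while Kcnip2 and Kcnip4 overlapped in every comparison. Kcnip3, whose protein is also known as a calcium-dependent transcriptional repressor, was 1200.3, 907.7 and 838.4 on the wild-type arrays, 700.8, 535.2 and 1016.9 on the Nf1-null arrays and 2593.2, 1863.3 and 1816.7 on the GSC arrays. All GSC arrays were above all NSC arrays. It rose by 1.51 (SE 0.28, adjusted p = 0.0488) over Nf1-null NSC, and the 1.09 over wild-type NSC just missed the threshold (SE 0.28, adjusted p = 0.0535). The call was lost on leaving out any 1 of the 9 arrays (1.29 to 1.75), with the block (1.51, adjusted p = 0.0767), in the 6 arrays compared (1.51, adjusted p = 0.134) and with the mean of both probe sets (2.58, adjusted p = 0.0682). The other probe set gave 3.65 and 2.99. Kcnip1 was 436.8, 1110.1 and 1583.5 on the wild-type arrays, 1141.1, 2512.1 and 3293 on the Nf1-null arrays and 2984.4, 5476.5 and 3952.2 on the GSC arrays. GSC exceeded wild-type NSC without overlap, with a difference of 2.13 (SE 0.56, adjusted p = 0.0574), and Nf1-null NSC overlapped both. In each same-numbered pair of NSC arrays Kcnip1 was higher in the Nf1-null array, and it was called between the NSC groups with the block among the brighter 50%, an alternative chosen after seeing the data. Between GSC and wild-type NSC it passed among the brighter 50% of genes (adjusted p = 0.0174).

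The transmembrane partners were low in Nf1-null NSC. Dpp6 was 1562.2, 2705.8 and 2714.3 on the wild-type arrays, 697.1, 580.7 and 881.4 on the Nf1-null arrays and 1277.4, 1275.7 and 1487.1 on the GSC arrays. The groups did not overlap, in the same order as for Kcnd2, and the NSC groups differed by -1.67 (SE 0.26, adjusted p = 0.0825 over all genes, 0.0147 in limma among the brighter 50%). Dpp10 was 483.2, 533.2 and 605.9 on the wild-type arrays, 58.1, 74 and 86.3 on the Nf1-null arrays and 28.7, 222.8 and 240.4 on the GSC arrays. Wild-type NSC were above every other array, and GSC array 1 was the lowest (Nf1-null minus wild-type NSC -2.89, SE 0.74, adjusted p = 0.164). Between the NSC groups, 5 of 8 oligodendrocyte precursor markers, Pdgfra among them, were lower in Nf1-null NSC without overlap, and 3, including Olig1 and Olig2, overlapped. Between GSC and wild-type NSC the summed markers overlapped, but Cspg4, Olig2 and Pcdh15 were higher and Gpr17 lower in GSC without overlap, and 4 overlapped. Pdgfra was 13362.9, 13123.6 and 8945.9 on the wild-type arrays, 2673, 457.4 and 3304.6 on the Nf1-null arrays and 2663.1, 14127.2 and 7731.3 on the GSC arrays, with Nf1-null NSC array 2 the lowest. The part of these markers in the results was not tested.

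Electrically silent modifiers form no channel alone and alter Kv2 channels they join. Kcnf1 was dim on average, at 106.6, 169.3 and 162.9 on the wild-type arrays, 114.4, 148.7 and 188.4 on the Nf1-null arrays and 30.5, 10 and 11.9 on the GSC arrays. The NSC groups overlapped, and all GSC arrays were far below them. It fell by 3.13 (SE 0.42, adjusted p = 0.0112) against wild-type NSC and by 3.17 (SE 0.42, adjusted p = 0.0215) against Nf1-null NSC. With a pseudocount of 16 the differences were -2.30 and -2.34, and the GSC signals are near the floor. The first call was lost without wild-type NSC array 2 (-3.01, adjusted p = 0.0503) and with the mean of both probe sets (-1.39), and the second without Nf1-null NSC array 1, 2 or 3 or GSC array 2 or 3 (-2.88 to -3.35), with the block (-3.17, adjusted p = 0.0565) and with the mean of both probe sets (-1.36). The other probe set was dim and gave 0.35 against wild-type NSC.

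Kcnv1 went up where Kcnf1 went down. It was 344.2, 179.6 and 398.8 on the wild-type arrays, 425.9, 392.2 and 475.3 on the Nf1-null arrays and 589.3, 1753.6 and 2045.7 on the GSC arrays. GSC arrays 2 and 3 were much higher than array 1, which was still above every NSC array. The rise over wild-type NSC was 2.14 (SE 0.50, adjusted p = 0.0405), and other probe sets gave 2.79 and 3.49. It stayed past the threshold only without GSC array 1 (2.70) and was lost without any other array (1.79 to 2.36) and in the 6 arrays compared. Kcns2 was 319.3, 239.6 and 224.7 on the wild-type arrays, 319.6, 169.7 and 216 on the Nf1-null arrays and 72.3, 89.1 and 132.4 on the GSC arrays. Here GSC lay below all NSC arrays, and the fall against wild-type NSC was 1.43 (SE 0.31, adjusted p = 0.0335). That call held without Nf1-null NSC array 1 or 2 and was lost without any other array (-1.24 to -1.67), with quantile normalization (-1.28, adjusted p = 0.0529), with the mean of all probe sets (-1.78) and in the 6 arrays compared (adjusted p = 0.0501). Kcng4 was 73.3, 103.6 and 105.5 on the wild-type arrays, 107.2, 87.6 and 149.7 on the Nf1-null arrays and 148.4, 480.2 and 432.7 on the GSC arrays, with array 1 of the GSC at the edge of the NSC values (1.75 over wild-type NSC, SE 0.46, adjusted p = 0.0552). Summed oligodendrocyte markers also differed between the GSC arrays (27044.6, 58134.0 and 92737.8), as did 6 summed Schwann cell markers (5447.3, 12834.5 and 14500). Array 1 was the lowest for both sums. Most of these differences lay in Mbp (2601.3, 29057.3 and 65239.2) and in Pmp22 (4380.5, 11229 and 12151.6). Array 1 was also the lowest for Mag, Mog, Ermn, Cnp, Erbb3, Ngfr and Dhh. For Opalin, Mobp, Gfra3 and Pmp2 it was not. The part of these markers in the Kcnv1 and Kcng4 values was not tested. Of 9 measured genes of this class, 1 rose, 2 fell and 6 did not pass against wild-type NSC.

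Of the Kv7 genes, which carry the slow M-current, Kcnq5 was 236.9, 232.5 and 283.1 on the wild-type arrays, 545.4, 536.5 and 305.6 on the Nf1-null arrays and 453.8, 813.5 and 658.7 on the GSC arrays. Wild-type NSC lay below every other array, and Nf1-null NSC array 3 was close to them. The rise in GSC over wild-type NSC was 1.32 (SE 0.30, adjusted p = 0.0371). The call was lost without wild-type NSC array 1, 2 or 3 (1.28, 1.27 and 1.41), Nf1-null NSC array 1 (1.32) or GSC array 2 or 3 (1.13 and 1.28), and with the mean of all probe sets (0.88). Kcnq3 was 1633, 1550 and 1070.4 on the wild-type arrays, 562.1, 42.3 and 456.9 on the Nf1-null arrays and 519.6, 878 and 518.8 on the GSC arrays. Wild-type NSC were the highest, and Nf1-null NSC array 2 was again far below all other arrays (Nf1-null minus wild-type NSC -2.64, SE 0.90, adjusted p = 0.215). Of the EAG, ERG and ELK genes 0 of 6 passed in any comparison. Kcnh2, the ERG channel gene, was 434, 184.2 and 499.8 on the wild-type arrays, 438.4, 609.8 and 634.3 on the Nf1-null arrays and 388.1, 247.5 and 158.7 on the GSC arrays, below Nf1-null NSC in all GSC arrays (-1.16, adjusted p = 0.267), and Kcnh3 overlapped in all groups.

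Of 12 accessory subunits, Kcne1l had the widest difference of the family. Its small membrane protein modulates Kv channels, and the gene lies on the X chromosome. It was 1889.2, 837.9 and 221.3 on the wild-type arrays, 548.3, 130.1 and 112.5 on the Nf1-null arrays and 12.5, 9.6 and 7.9 on the GSC arrays. GSC arrays were all near the floor, while NSC arrays varied several-fold within each group, with array 1 the highest in both. Against wild-type NSC it fell by 6.03 (SE 0.86, adjusted p = 0.0128), with a difference of -4.81 at a pseudocount of 16. Without wild-type NSC array 2 (-5.90, adjusted p = 0.0540), GSC array 2 (-6.01, adjusted p = 0.0541) or array 3 (-5.88, adjusted p = 0.0514) it missed the threshold. Against Nf1-null NSC the difference was -4.22 (SE 0.86, adjusted p = 0.0624), and with the block it fell. Kcnab1, a cytoplasmic beta subunit, was 282.7, 248.7 and 220.6 on the wild-type arrays, 81.3, 134 and 121.5 on the Nf1-null arrays and 64.9, 77.9 and 198.2 on the GSC arrays, highest in wild-type NSC without overlap, but neither comparison with them passed (-1.18, adjusted p = 0.227, and -1.31, adjusted p = 0.0940). In this class 1 of 12 fell and 11 did not pass against wild-type NSC.

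Among calcium-activated channels, Kcnn2, the small-conductance channel gene, was 5297.2, 6317 and 8401.1 on the wild-type arrays, 1869.2, 639.1 and 3246.2 on the Nf1-null arrays and 1164.5, 741.5 and 637.7 on the GSC arrays. Wild-type NSC were highest without overlap. Nf1-null NSC were spread widely, with array 2 down in the range of GSC. The fall in GSC was 3.00 (SE 0.56, adjusted p = 0.0245) against wild-type NSC, and the NSC groups differed by -2.06 (SE 0.56, adjusted p = 0.175). The call was lost without wild-type NSC array 2 or 3 (-3.02 and -2.82) or GSC array 2 or 3 (-2.92 and -2.82). Kcnmb4, a beta subunit of the large-conductance channel, was 5825.1, 6176.2 and 3947.9 on the wild-type arrays, 3997.4, 2091.1 and 3308.6 on the Nf1-null arrays and 7372.2, 2554.7 and 3198.5 on the GSC arrays, and Kcnma1, its pore gene, named after its values were seen, was 1524.8, 562.8 and 1278 on the wild-type arrays, 1718.9, 1517.2 and 2158.4 on the Nf1-null arrays and 1091.9, 2364.6 and 2444.5 on the GSC arrays; neither passed in any comparison. Kcnmb2, another beta subunit, was 97.8, 171.3 and 175 on the wild-type arrays, 36, 116 and 107.9 on the Nf1-null arrays and 146.1, 193.3 and 287.4 on the GSC arrays, higher in GSC than Nf1-null NSC on every array without passing (1.38, adjusted p = 0.227). Its other probe set, also not dim, gave 0.33, and there the groups overlapped. On it GSC were 80.4, 124.4 and 142.7 and Nf1-null NSC 79.6, 120.7 and 74.7. Kcnu1, only counted with this class and singled out after its values were seen, was highest in GSC without overlap (0.99 over Nf1-null NSC, adjusted p = 0.0527). It was 283.4, 262.7 and 343.1 on the wild-type arrays, 204.6, 165.4 and 249.4 on the Nf1-null arrays and 410.1, 418.1 and 392.6 on the GSC arrays. Of the 11 genes, 1 fell and 10 did not pass against wild-type NSC.

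**Figure D4:**
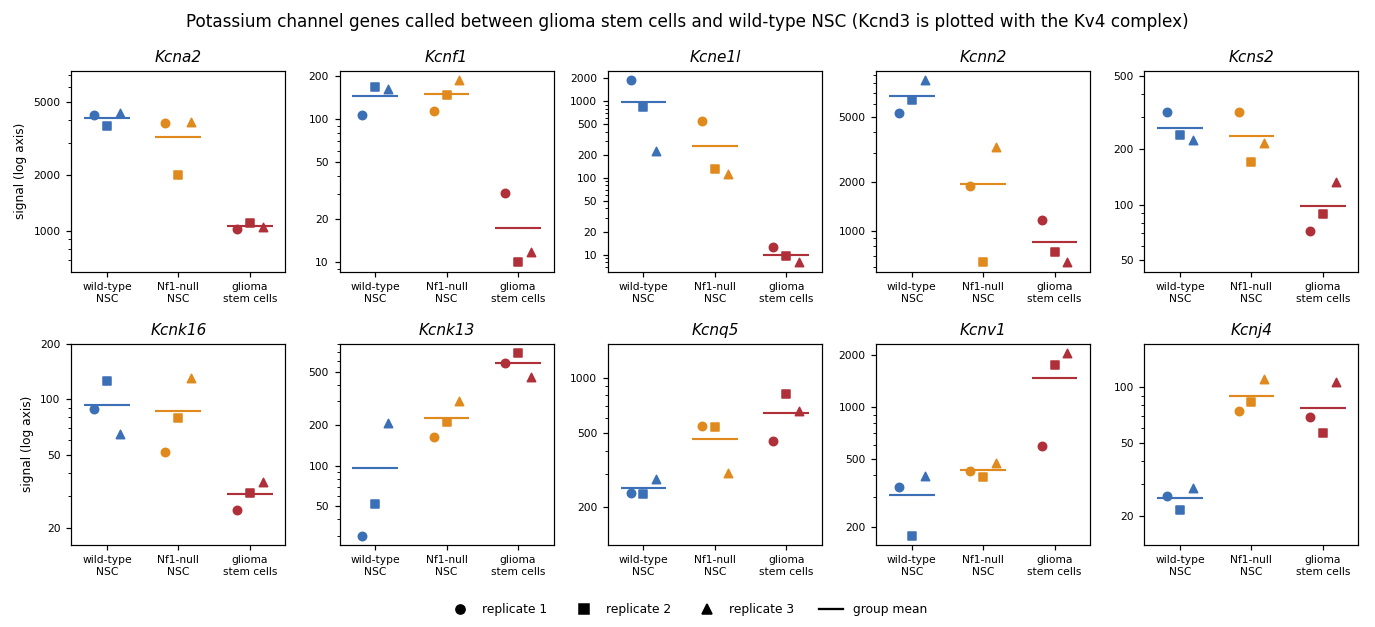
Signals (log axis) on each array, by group, of 10 of the 11 potassium channel genes called between GSC and wild-type NSC; lines are group means (n = 3) and symbols replicate numbers. In every panel the GSC arrays lie wholly on one side of the wild-type NSC arrays. For Kcnj4, Kcnn2 and Kcnq5 all Nf1-null NSC arrays lie on the same side as GSC.

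Of the inward rectifiers, Kcnj10 was the brightest, and its arrays differed widely. It was 8881.8, 9704.2 and 63722.9 on the wild-type arrays, 4483.3, 1908.4 and 40196.6 on the Nf1-null arrays and 7601.8, 1748 and 2552.3 on the GSC arrays. The arrays numbered 3 of both NSC groups stood several-fold above their fellows, and the groups of NSC overlapped. Xist, a transcript of the inactive X chromosome, was 587.7 and 385.6 on that same pair of arrays and at least 30974.5 on every other. Kdm5d, a Y-linked gene, was 1682.9, 2342 and 3022.7 on the wild-type arrays, 1433.4, 1273.7 and 2521.3 on the Nf1-null arrays and 539.8, 47.7 and 833.8 on the GSC arrays. The labels used here give no sex, and its part in the Kcnj10 and Kcne1l values was not tested. No comparison of Kcnj10 passed (GSC minus wild-type NSC -2.45, SE 1.26, adjusted p = 0.262), although its groups did not overlap there. Kcnj16, whose product pairs with that of Kcnj10, was 1933, 1881.8 and 2928 on the wild-type arrays, 2044.3, 1963.5 and 3223.2 on the Nf1-null arrays and 1557.3, 766.3 and 744.2 on the GSC arrays. The NSC groups overlapped, again with array 3 the highest, and all GSC arrays were lower (-1.19 against wild-type NSC, SE 0.36, adjusted p = 0.0796, and -1.29 against Nf1-null NSC, adjusted p = 0.135). Among the brighter 50% of genes both Kcnj16 differences passed in limma (adjusted p = 0.0266 and 0.0496). The other Kcnj16 probe set, of similar brightness, gave -1.16 and -1.09, but there GSC overlapped both NSC groups. On it GSC array 1 was 1883.5, above wild-type NSC array 1 (1600.7) and Nf1-null NSC array 2 (1476.4). Summed astrocyte markers were lower in GSC than in wild-type NSC as well, and overlapped Nf1-null NSC. Of the 8 markers, 5 (Aldh1l1, Aqp4, Gfap, Gja1 and Slc1a3) were lower in GSC than wild-type NSC without overlap, 1 (S100b) was higher and 2 overlapped. Against Nf1-null NSC, Aldh1l1, Aqp4 and Gja1 were lower in GSC without overlap, S100b was higher and 4 overlapped. Between the NSC groups, Aqp4, Gja1, Slc1a3 and Aldoc were lower in Nf1-null NSC without overlap, and 4 overlapped. Aldh1l1 was 32418.4, 33105.9 and 43185.6 on the wild-type arrays, 31920.6, 25833.2 and 40852.5 on the Nf1-null arrays and 660.4, 282.7 and 239.5 on the GSC arrays, while S100b was 4451.4, 6913.8 and 11308.3 on the wild-type arrays, 3070.8, 3884.3 and 10179.4 on the Nf1-null arrays and 17467.7, 34245.9 and 33524.6 on the GSC arrays. Their part in the Kcnj10 and Kcnj16 values was not tested.

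Kcnj4, a strong inward rectifier gene, was dim, at 25.6, 21.7 and 28.4 on the wild-type arrays, 74.4, 83 and 111.1 on the Nf1-null arrays and 69.3, 56.6 and 106.9 on the GSC arrays. Wild-type NSC were below every array of both other groups. It rose by 1.54 in GSC over wild-type NSC (SE 0.27, adjusted p = 0.0209), and Nf1-null NSC were 1.77 higher than wild-type NSC (SE 0.27, adjusted p = 0.0825). The call was lost without wild-type NSC array 2 or 3 (1.44 and 1.63) or GSC array 3 (1.29) and with the trend (adjusted p = 0.0581). Kcnj12, a related strong rectifier gene, was 385.9, 301.2 and 222.6 on the wild-type arrays, 194.4, 48.1 and 162.5 on the Nf1-null arrays and 114.4, 132.8 and 172.2 on the GSC arrays, highest in wild-type NSC without overlap (-1.35 in Nf1-null NSC, not past the threshold). Among 15 inward rectifiers 1 rose and 14 did not pass against wild-type NSC.

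Of the leak channels, Kcnk13 was 30.4, 52 and 208.8 on the wild-type arrays, 163.4, 210.5 and 304 on the Nf1-null arrays and 579.1, 686.2 and 455.5 on the GSC arrays. GSC were highest without overlap, and wild-type NSC array 3 was within the Nf1-null NSC values. It rose by 3.01 over wild-type NSC (SE 0.64, adjusted p = 0.0325), and stood 1.37 above Nf1-null NSC (adjusted p = 0.346). The call did not hold without wild-type NSC array 1 or 2 (2.43 and 2.80) or GSC array 1, 2 or 3 (2.99, 2.87 and 3.17), nor with the mean of both probe sets (1.30) or in the 6 arrays compared; without wild-type NSC array 3 the difference was 3.80. The dim other probe set gave -0.41. Kcnk16 was dim, at 88.7, 126.1 and 64.8 on the wild-type arrays, 52, 79 and 130.1 on the Nf1-null arrays and 25.1, 31.3 and 35.8 on the GSC arrays. All GSC arrays were lower than all NSC arrays, and the fall against wild-type NSC was 1.53 (SE 0.37, adjusted p = 0.0454). This call, with the highest adjusted p of the 11, held without Nf1-null NSC array 1 or 3, was lost without any other array (-1.29 to -1.76), and was lost with quantile normalization (-1.37), with arrays shifted to the same median (-1.40) and with the trend (adjusted p = 0.0788).

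Kcnk2, a leak channel gated by stretch and lipids, was 4392.6, 7744.1 and 4811.2 on the wild-type arrays, 3531.4, 3304.5 and 4016.2 on the Nf1-null arrays and 3743.4, 2217.6 and 1666.9 on the GSC arrays. Wild-type NSC were highest without overlap, and array 1 of the GSC lay among the Nf1-null NSC (GSC minus wild-type NSC -1.19, SE 0.34, adjusted p = 0.0685, and 0.0214 among the brighter 50%). Kcnk10, its close relative, was 217, 486.3 and 337.2 on the wild-type arrays, 97.1, 115.8 and 202.7 on the Nf1-null arrays and 109.2, 186.4 and 253.7 on the GSC arrays, with the Nf1-null below the wild-type NSC (-1.31, adjusted p = 0.208). Kcnk1, named after its values were seen, was 692.7, 2373.5 and 8103.8 on the wild-type arrays, 686.4, 2440.3 and 6985.2 on the Nf1-null arrays and 862.2, 2520.7 and 1859.8 on the GSC arrays. Same-numbered arrays of the NSC groups were close, and arrays with different numbers differed by several-fold, so here the number separated the NSC arrays and the virus did not. Of 12 leak channel genes 1 rose, 1 fell and 10 did not pass against wild-type NSC. Kcnq1ot1, the imprinted non-coding RNA opposite Kcnq1, was 1886.5, 2262.6 and 1802.2 on the wild-type arrays, 1497.1, 1882.7 and 1444.6 on the Nf1-null arrays and 1610.3, 1494.9 and 1737.4 on the GSC arrays, and 0 of 3 non-coding members passed in any comparison.

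**Figure D5:**
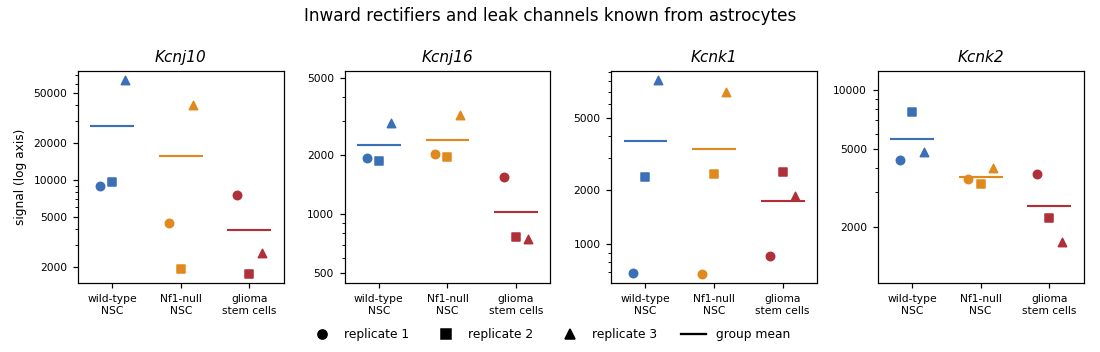
Signals (log axis) of Kcnj10, Kcnj16, Kcnk1 and Kcnk2 on each array, by group, with lines at group means (n = 3) and symbols for replicate numbers. Triangles mark replicate 3, which is the highest NSC array for Kcnj10, Kcnj16 and Kcnk1 in both NSC groups; GSC array 1 is the highest of its group for Kcnj10, Kcnj16 and Kcnk2.

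Of 29 measured genes outside the family whose products bind, anchor, modify or work beside potassium channels, 2 rose, 2 fell and 25 did not pass between GSC and wild-type NSC (13.8% called, where 9.06% of all genes were). Ank3, which encodes the anchor of Kv7 channels at axon initial segments, was 1346.9, 2158.1 and 3835 on the wild-type arrays, 3882.6, 8068.2 and 8148.6 on the Nf1-null arrays and 8371.9, 17498.3 and 15162.5 on the GSC arrays. It was lowest in wild-type NSC and highest in GSC without overlap of any groups (2.55, SE 0.48, adjusted p = 0.0253). Atp1b3, a sodium-potassium pump subunit gene, rose by 0.98 (adjusted p = 0.0285). Hcn3, a channel gene of the related pacemaker family, fell by 2.52 (adjusted p = 0.0421), and Nedd4l, a ubiquitin ligase gene, by 1.14 (adjusted p = 0.0367). In the other comparisons 0 of 29 passed over all genes in limma; 6 (20.7%, against 16.5% of all genes) were at an unadjusted p under 0.05 between GSC and Nf1-null NSC, and 9 (31.0%, against 16.8%) between the NSC groups, where Dpp6 passed among the brighter 50% of genes.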

How the data were processed

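Biotinylated cRNA of 9 samples, prepared per the labels' protocols (100 ng total RNA as input), was hybridised to Affymetrix Mouse Genome 430 2.0 arrays, the platform of the annotation used. The deposited value of each probe set is an intensity on a linear scale, which the authors had scaled so that the trimmed mean (2% off each end) was 1500 on every array, as the deposited values show. The software that made them: not given in the sources used here. Medians were 264.7 to 287.4 per array, and no read depth applies, so 3 arrays a group limit the precision.

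Of 45101 probe sets, the platform annotation gives 34945 a single symbol, 932 more than that and 9160 no symbol. The brightest probe set by mean stood for a gene. Differences are log2(value + 1), so folds of dim genes are understated, and were tested with limma 3.58.1 in R 4.3.3. The model held all 3 groups (6 residual and 1.63 prior degrees of freedom), and p-values were Benjamini-Hochberg adjusted over 18193 genes at 0.05. The procedure was tested on simulated data. Figures were drawn with matplotlib 3.10.9.

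Genes were named if called in any comparison, if called between the NSC groups among the brighter 50% or with the trend, if not dim and among the 6 largest non-overlapping differences in a direction, or if among the 6 brightest or brightest of a class. Kcnd2 was always named, because earlier results of these data had already named it, and other names are marked as chosen afterwards. The members and lists were chosen with earlier results of these data known. Same-numbered arrays of the NSC groups deviated together from their group means (correlations 0.64, 0.24 and 0.59 over 9097 brighter genes). Those of Nf1-null NSC and GSC gave 0.30, 0.12 and 0.11. For these groups, Nf1-null NSC array 2 with GSC array 3 gave 0.11, and Nf1-null NSC array 3 with GSC array 2 gave 0.09. Pairs 2 and 3 thus did not stand apart from unlike numbers there. Any pairing comes from the data, not the labels. Over all 18193 genes the same-numbered correlations were 0.13, 0.05 and 0.17 for the NSC groups, and 0.08, 0.04 and 0.01 for Nf1-null NSC and GSC.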

Additional observations from a re-analysis of the deposited data

Results flagged for a closer look

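For 3 potassium channel genes the change from wild-type NSC differed between GSC and Nf1-null NSC. As both changes share the wild-type arrays, their difference equals GSC minus Nf1-null NSC and was tested as that comparison. Kcna2 changed by -1.95 in GSC and differed by -0.40 in Nf1-null NSC, a difference of -1.55 (adjusted p = 0.0375 in limma, lower on all 3 GSC arrays than on any Nf1-null array). For Kcnf1 the values were -3.13 and 0.04, a difference of -3.17 (adjusted p = 0.0215, lower on all 3 GSC arrays). For Kcnip3 they were 1.09 and -0.42, neither past the threshold, with a difference of 1.51 (adjusted p = 0.0488, higher on all 3 GSC arrays). None of these calls held in the 6 arrays compared, with the replicate block or with the mean of all probe sets. Of the 9 omissions of 1 array, 1 kept the call of Kcna2, 4 that of Kcnf1 and 0 that of Kcnip3. Kcnf1 was dim and near the floor in GSC, and its other probe set gave 0.45.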

How the results depend on the processing

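Between the NSC groups 0 potassium channel genes were called. The count was 2 among the brighter 50% of genes, 2 with the mean-variance trend, 2 with trend and robust moderation and 1 at an adjusted p under 0.1. Leaving out any 1 array gave 0, and the replicate block alone also gave 0. The block among the brighter 50%, an alternative chosen after seeing the data, gave 4 (Kcnc1, Kcnd2, Kcnip1 and Kcnn2).

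Between GSC and Nf1-null NSC the 3 calls became 0 in the 6 arrays compared, 0 when probe sets of a gene were averaged, 1 with the replicate block, 5 without the dimmest 25% of genes, 5 with the trend, 6 with trend and robust moderation, 12 with array weights and 6 at an adjusted p under 0.1. Leaving out 1 array gave 0 to 6.

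Between GSC and wild-type NSC the 11 calls became 6 with the mean of all probe sets, 7 among the brighter 50%, 7 with the replicate block, 7 with the block among the brighter 50%, and 18 at an adjusted p under 0.1. Leaving out 1 array gave 1 to 12. With the replicate block Kcnd3, Kcnk16, Kcnq5, Kcns2 and Kcnv1 missed the threshold (adjusted p = 0.0565 to 0.0641) and Kcnip1 passed it (adjusted p = 0.0240). Same-numbered arrays of this pair of groups correlated at 0.24, 0.05 and 0.20 over the brighter genes, and wild-type NSC array 3 with GSC array 2 at 0.19. A pairing is thus not clear here either.

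The alternatives with the main threshold and a combined or brightest probe set for each gene were counted for the 37 named differences. Of these values, 565 kept their direction and side of the threshold, 105 lost the call, 55 gained it and 0 changed sign. Probe sets taken on their own were not counted, and some did differ in sign, as given below. Where groups did not overlap, leaving out 1 array could not change a sign. Only 14 of the 37 named differences were called in the main fit. For those 14, 167 values kept the call and 105 lost it. Signals near the floor limit the folds of Kcne1l, Kcnf1, Kcnj4 and Kcnk16. Among the called genes, probe sets differed in sign for Kcna2, Kcnf1 and Kcnk13. Probe sets also departed from each other for genes that were not called over all genes. For Kcnc1, 1 gave -0.24 between the NSC groups, and for Kcnmb2 the other gave 0.33 in GSC over Nf1-null NSC. The causes were not tested.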
